A study of Rattus norvegicus with 18 samples.

Results

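The genes described here are 10 markers of the early oligodendrocyte lineage in the prefrontal cortex (PFC) of rat pups. They were matched by gene symbol, and all 10 were found once among the 32623 genes listed and passed the filter on low counts, together with 15693 other genes. Of the 10, 2 mark precursor cells (*Pdgfra*, *Cspg4*), 4 are transcription factors of the whole lineage (*Olig1*, *Olig2*, *Sox10*, *Nkx2-2*) and 4 mark committed or newly formed oligodendrocytes (*Gpr17*, *Enpp6*, *Bcas1*, *Itpr2*). RNA was taken at postnatal day 14 from 18 Sprague Dawley pups, 6 in each of 3 groups, and the labels do not say which pup came from which dam, so p-values measure the spread between pups. In the SAL group the dams received saline by oral gavage. In the PNO group the dams received oxycodone (oxy), a semisynthetic opioid, from parturition on (15 mg/kg/day), and their pups were exposed through milk. In the IUO group the dams started at 10 mg/kg/day, were raised to 15 mg/kg/day, then mated and kept on oxy, so that pups were exposed through the placenta and then through milk. Summed expected counts lay between 18381819 and 26084780 per pup. The *Pdgfra* counts behind the levels were between 1303 and 3766 per pup, while *Nkx2-2* rested on 71 to 214 and *Itpr2* on 52 to 642.

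Oligodendrocyte precursor cells divide and migrate through the developing brain, respond to platelet-derived growth factor through the receptor encoded by *Pdgfra*, and carry the proteoglycan NG2 encoded by *Cspg4*. A precursor that leaves the cell cycle passes through a committed stage marked by the receptor *Gpr17* and then becomes a newly formed oligodendrocyte that expresses *Enpp6*, *Bcas1* and *Itpr2*, before it makes myelin. *Olig1*, *Olig2*, *Sox10* and *Nkx2-2* are used from the precursor onward, and *Sox10* and *Olig2* remain on in myelinating cells. In the second postnatal week the rat forebrain holds all of these stages at once. In RNA from whole tissue, fewer cells of a stage and less RNA per cell cannot be told apart.

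Promoter sequence from RefSeq (build GRCr8) was on hand for 7 of the 10 genes, as the 250 bases before the gene's start. Those of *Olig2* and *Enpp6*, which varied together across the pups, and of *Pdgfra*, which varied apart from them, are shown because 3 of the 10 genes encode factors that bind such DNA: Olig1 and Olig2 are basic helix-loop-helix proteins, whose class binds the E-box CANNTG, and Sox10 is an HMG-box protein, whose class binds ACAAAG or ACAATG. Capitals mark matches to these motifs on either strand.
Olig2, chr11:43961335-43961584, plus strand: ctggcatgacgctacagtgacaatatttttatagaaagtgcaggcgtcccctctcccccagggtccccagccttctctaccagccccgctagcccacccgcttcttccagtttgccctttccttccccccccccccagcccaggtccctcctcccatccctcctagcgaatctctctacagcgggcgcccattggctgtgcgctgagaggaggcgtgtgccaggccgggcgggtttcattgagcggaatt
Enpp6, chr16:52026729-52026978, minus strand: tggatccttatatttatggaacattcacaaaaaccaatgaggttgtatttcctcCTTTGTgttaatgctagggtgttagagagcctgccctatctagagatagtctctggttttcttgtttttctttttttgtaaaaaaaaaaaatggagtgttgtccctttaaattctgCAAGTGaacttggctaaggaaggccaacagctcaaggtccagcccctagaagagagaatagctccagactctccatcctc
Pdgfra, chr14:33408517-33408766, minus strand: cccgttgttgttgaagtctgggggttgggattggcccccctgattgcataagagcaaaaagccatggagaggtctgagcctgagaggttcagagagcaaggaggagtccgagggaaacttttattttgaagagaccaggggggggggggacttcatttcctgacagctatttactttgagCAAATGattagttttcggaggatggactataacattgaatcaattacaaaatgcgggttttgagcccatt
*Enpp6* held 1 ACAAAG (read as its reverse complement CTTTGT) and 1 E-box, *Pdgfra* held 1 E-box, and *Olig2* held neither. Of the 7 promoters only that of *Enpp6* held a match to ACAAAG or ACAATG, against 25.3% of 33469 rat promoters of the same length, and 65.5% of these held an E-box. A match is only a match of letters, and its absence says only that the letters are not in this window. *Olig2* and *Olig1* lie next to each other in the RefSeq gene order, with 0 genes listed between them.

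Every one of the 10 markers was expressed in every pup. On the scale of the deposited TPM, which corrects for transcript length and fixes the total of each pup, *Bcas1*, which encodes a protein of early myelinating oligodendrocytes, had the highest mean over the 18 pups at 123 TPM, and *Olig1* followed at 114 TPM. These neighbours did not differ beyond their spread, since *Bcas1* was above *Olig1* in 9 of 18 pups. *Sox10* followed at 40.2 TPM, *Gpr17* at 38.7, *Olig2* at 32.1 and *Pdgfra* at 25.5, and again the order was mixed, with *Sox10* above *Gpr17* in 11 pups and *Gpr17* above *Olig2* in 11. *Enpp6*, a choline phosphodiesterase of newly formed oligodendrocytes, averaged 16.5 TPM and *Cspg4* 8.12 TPM, and *Enpp6* was above *Cspg4* in 18 of 18 pups. *Nkx2-2* (6.57 TPM) and *Itpr2* (2.23 TPM), an intracellular calcium channel, were lowest.

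Among the 10, the newly formed genes had the widest range over pups, in part through PNO replicate 1. Between the lowest and the highest of the 18 pups, the level in CPM, the count scaled to library size, differed 8.81-fold for *Itpr2*, 6.43-fold for *Gpr17*, 4.87-fold for *Enpp6* and 4.30-fold for *Bcas1*. For *Pdgfra* and *Cspg4* the same ratio was 2.06 and 1.65, and for the 4 transcription factors it lay between 2.15 and 2.66. Without PNO replicate 1 the ratio was 4.90 for *Itpr2*, 4.30 for *Bcas1*, 3.25 for *Gpr17* and 2.63 for *Enpp6*, the last of these no wider than *Olig1* at 2.66.

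*Pdgfra*, the precursor receptor, was at 90.7 CPM in the lowest SAL pup, 99.9 at the median and 112 in the highest. It was at 68.7, 101 and 142 CPM in PNO, and at 86.2, 104 and 118 CPM in IUO. The medians of the 3 groups were close, and the PNO group reached both lower and higher than SAL and IUO.

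*Cspg4* was at 33.0, 39.8 and 54.4 CPM (lowest, median and highest) in SAL, at 36.0, 41.1 and 50.7 in PNO, and at 36.5, 38.9 and 45.3 in IUO. Its groups overlapped, and the SAL pups ranged most widely.

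Among the transcription factors, *Olig1* was at 82.8, 154 and 187 CPM in SAL, 116, 182 and 220 in PNO, and 96.1, 128 and 171 in IUO. *Olig2*, which specifies the lineage, was at 38.1, 52.9 and 65.3 CPM in SAL, 39.4, 62.7 and 78.3 in PNO, and 33.4, 47.7 and 57.6 in IUO. All 6 IUO pups were below the PNO median for both genes, and 2 of them were below the lowest PNO pup. *Sox10* was at 58.4, 79.6 and 93.5 CPM in SAL, 54.1, 81.6 and 119 in PNO, and 53.7, 70.6 and 76.2 in IUO. *Nkx2-2*, a homeodomain factor that promotes differentiation, stayed between 3.74 and 8.05 CPM in all pups, with group medians of 5.64 in SAL, 5.03 in PNO and 5.38 in IUO.

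Of the newly formed stage, *Bcas1* was at 69.4, 184 and 299 CPM in SAL, 122, 227 and 269 in PNO, and 96.4, 136 and 164 in IUO. All 6 IUO pups lay below the median of SAL and below that of PNO, though the lowest pup of all was in SAL. *Enpp6* was at 8.45, 16.1 and 18.2 CPM in SAL, 9.32, 17.3 and 41.2 in PNO, and 10.5, 11.5 and 16.6 in IUO. *Gpr17* was at 9.89, 21.9 and 30.6 CPM in SAL, 9.81, 19.1 and 63.0 in PNO, and 12.6, 20.9 and 31.8 in IUO. *Itpr2* was at 6.05, 7.76 and 13.1 CPM in SAL, 2.74, 6.52 and 24.1 in PNO, and 5.31, 7.34 and 13.4 in IUO.

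**Figure D1:**
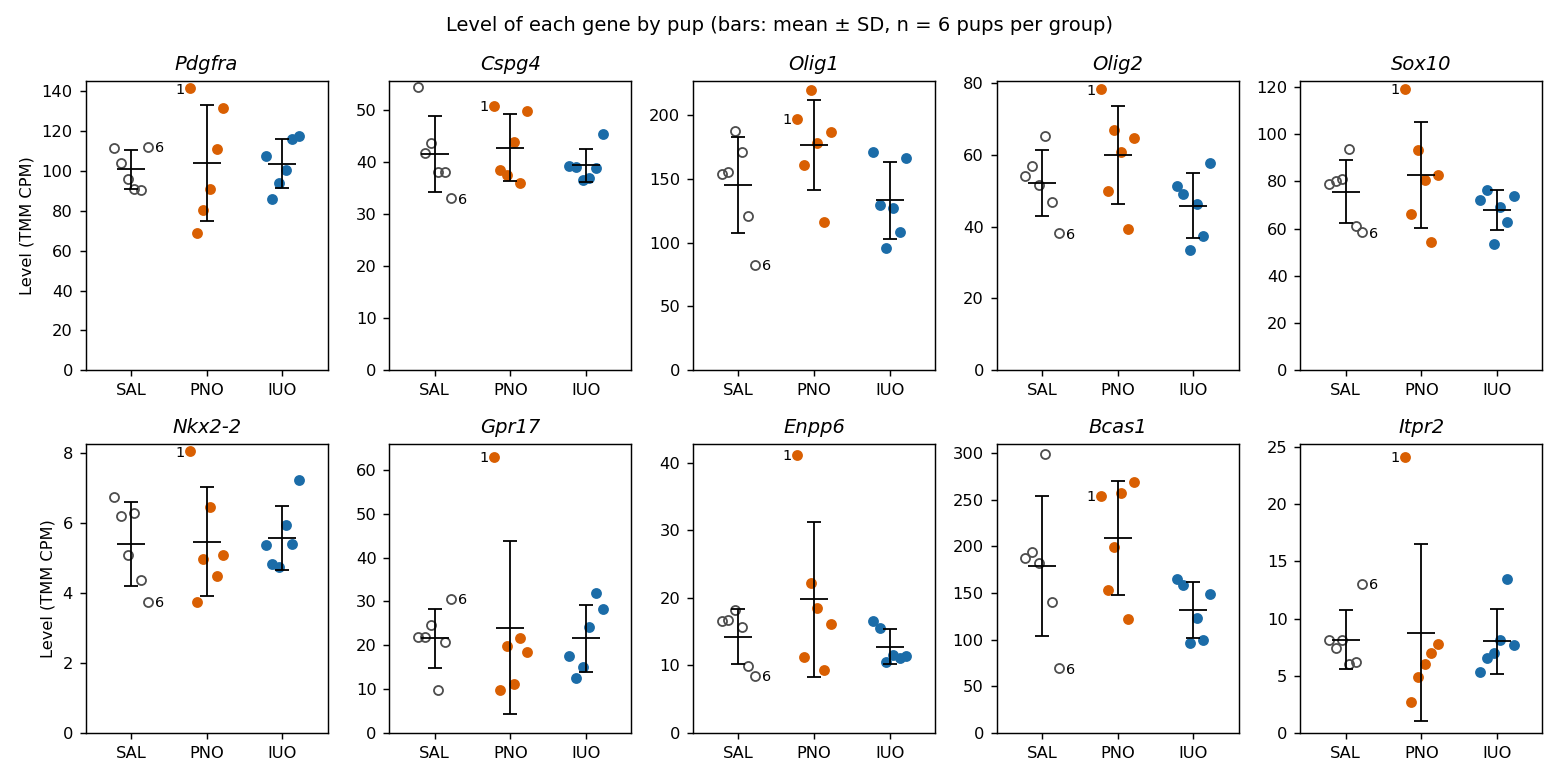
Level of each of the 10 genes in TMM-normalized CPM (y axis, from 0) in the 6 pups of each group, with the mean ± SD, and with PNO replicate 1 and SAL replicate 6 numbered. PNO replicate 1 is the highest of 18 pups for 7 genes, at 63.0 CPM of *Gpr17* and 41.2 CPM of *Enpp6*, and SAL replicate 6 is the lowest for 4 genes.

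A single pup set much of the spread. PNO replicate 1 was the highest of the 18 pups for 7 of the 10 genes, *Pdgfra*, *Olig2*, *Sox10*, *Nkx2-2*, *Gpr17*, *Enpp6* and *Itpr2*. Its *Gpr17* level of 63.0 CPM stood against 21.7 in the next PNO pup, its *Enpp6* level of 41.2 against 22.3, and its *Itpr2* level of 24.1 against 7.78. PNO replicate 2, of the same group, was the lowest of the 18 for 4 genes (*Pdgfra*, *Nkx2-2*, *Gpr17* and *Itpr2*). SAL replicate 6 was the lowest for another 4 (*Cspg4*, *Olig1*, *Enpp6* and *Bcas1*) although its *Gpr17* (30.6 CPM) and *Itpr2* (13.1 CPM) were the highest of SAL. PNO replicate 1 also had the highest summed level of 6 choroid plexus markers, 972 CPM against a median of 25.6 over all pups, and the highest summed level of 15 mature myelin genes, 15549 CPM against 5709.

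The first comparison asked whether exposure through milk alone went with a change in the early lineage. None of the 10 genes passed an adjusted p-value of 0.05 between PNO and SAL in edgeR's quasi-likelihood test, where 0% of the 15703 genes tested passed. At an unadjusted p-value under 0.05 the count was 0 of 10, against 4.5% of all genes, and DESeq2 and limma-voom, which called 0.00637% and 0% of all genes, also called 0 of the 10. All 10 fitted log2 fold changes were above 0, with a median of 0.14 against 0.00 over all genes, and the highest was that of *Enpp6* at 0.48 (95% interval -0.14 to 1.09, adjusted p = 0.912 in edgeR). All 10 were also above 0 with DESeq2 size factors, but 8 were without composition normalization and 6 in limma-voom with quality weights. Without PNO replicate 1, 6 of the 10 were below 0, *Gpr17* moved from 0.15 to -0.42, *Itpr2* from 0.11 to -0.52 and *Enpp6* from 0.48 to 0.12.

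The second comparison, which shares the SAL pups with the first, asked the same of exposure in utero and after birth. Between IUO and SAL, 0 of the 10 passed an adjusted p-value of 0.05 in edgeR, where 0% of all genes passed, and 0 of 10 were under an unadjusted 0.05, against 6.88% of all genes. Neither DESeq2 nor limma-voom called any of the 10, where they called 0.312% and 0.274% of all genes. *Bcas1* had the largest difference, a log2 fold change of -0.44 (adjusted p = 0.846 in edgeR), from 178 ± 75.0 CPM (SD, n = 6) in SAL to 132 ± 29.8 CPM in IUO. It was -0.23 without SAL replicate 4 and -0.61 without SAL replicate 6, with 0 of these fits past an adjusted 0.05. The precursor genes were narrowest in their intervals. That of *Pdgfra* ran from -0.27 to 0.35 and that of *Cspg4* from -0.31 to 0.16. For *Gpr17* (-0.81 to 0.81) and *Itpr2* (-0.84 to 0.79) the intervals were far wider.

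The third comparison set both exposures against each other, and here 4 of the 10 genes were lower in IUO before adjustment. Of the 10, 0 passed an adjusted p-value of 0.05 in edgeR, where 0.0637% of all genes passed. At an unadjusted p-value under 0.05, 4 of 10 were lower in IUO and 0 were higher, against 9.14% of all genes lower and 6.14% higher. The 4 were *Bcas1*, with a log2 fold change of -0.67 (95% interval -1.23 to -0.11, adjusted p = 0.252 in edgeR), *Enpp6* (-0.63, adjusted p = 0.314), *Olig1* (-0.41, adjusted p = 0.316) and *Olig2* (-0.39, adjusted p = 0.271). *Sox10* followed at -0.28 (adjusted p = 0.404), and was at -0.16 without PNO replicate 1, -0.39 without PNO replicate 5 and -0.12 without the 6 pups above 100 CPM of choroid plexus markers. The other 5 lay between -0.15 and 0.03, with *Pdgfra* at 104 ± 29.0 CPM in PNO and 104 ± 12.4 in IUO. The groups overlapped for every one of the 10 genes.

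The count of the 10 genes under an unadjusted 0.05 depended on single pups. Without IUO replicate 3 it was 0, without PNO replicate 1, PNO replicate 3, PNO replicate 6 or IUO replicate 5 it was 1, without PNO replicate 4 or IUO replicate 4 it was 2, and without PNO replicate 5 it was 5, with *Sox10* added. Over all genes the share under an unadjusted 0.05, 15.3% with every pup, was 12% without IUO replicate 3, 21.4% without PNO replicate 1, 18.1% without PNO replicate 5, and between 11.4% and 21.4% over the 12 fits. *Enpp6* moved from -0.63 to -0.29 without PNO replicate 1, and to -0.17 without the 6 pups above 100 CPM of choroid plexus markers. In that fit *Bcas1* was at -0.75, *Olig1* at -0.34 and *Olig2* at -0.34, and 0 of the 10 were under an unadjusted 0.05, against 11.9% of all genes. *Bcas1* ran from -0.79 to -0.58 over the 12 fits that left out 1 pup and stayed under an unadjusted 0.05 in 10 of them. In limma-voom with quality weights, *Bcas1* was the only one of the 10 past an adjusted 0.05 (log2 fold change -0.78, adjusted p = 0.0254), where 12.9% of all genes passed, so that 1 of 10 is near the background. Over all alternatives its adjusted p-value ran from 0.0254 to 0.484. DESeq2 called 0 of the 10 and 2.78% of all genes.

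**Figure D2:**
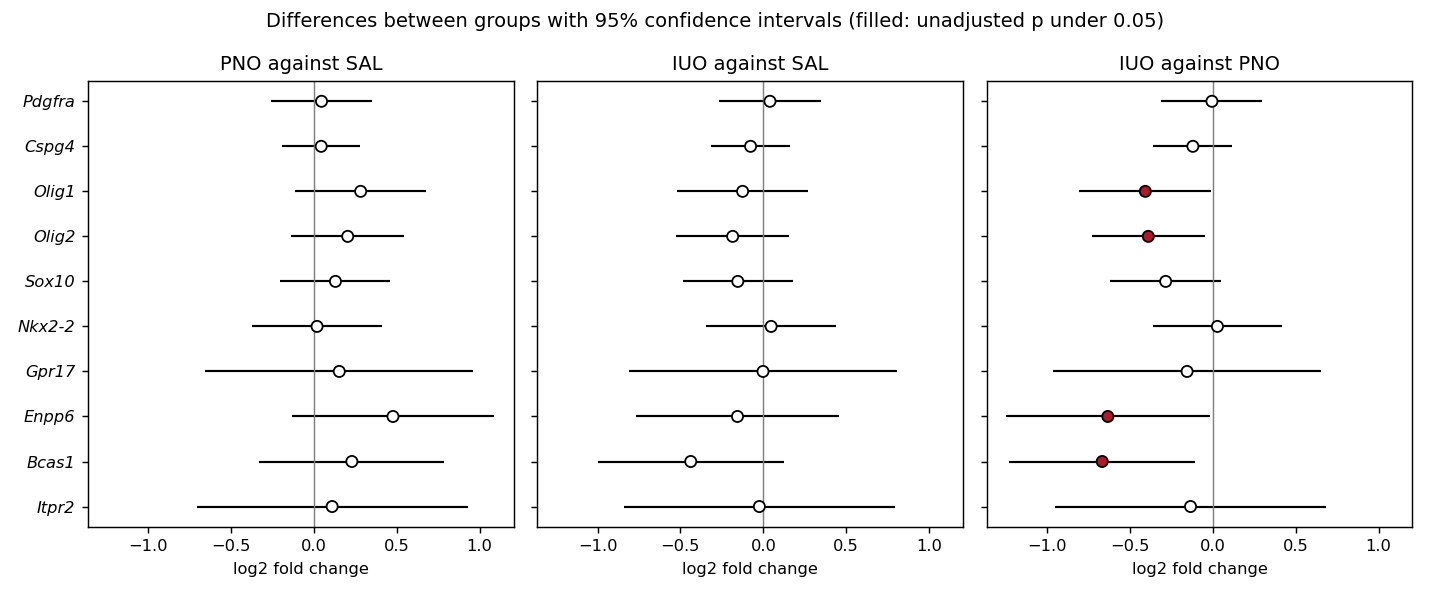
Fitted log2 fold change (x axis) of each gene with its 95% confidence interval in the 3 comparisons, from edgeR over 18 pups, with filled points at an unadjusted p-value under 0.05. The only filled points are *Olig1*, *Olig2*, *Enpp6* and *Bcas1* in IUO against PNO, and *Pdgfra* and *Cspg4* have the shortest intervals.

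Other genes of the lineage were read beside the 10. Of 13 further precursor genes tested, 4 were higher and 1 lower in IUO than in PNO at an unadjusted 0.05, with a median log2 fold change of 0.14 and 0 past an adjusted 0.05. The smallest p-values belonged to *Sema5b*, a semaphorin, at 29.5 ± 2.78 CPM (SD, n = 6) in IUO and 21.7 ± 4.36 in PNO (log2 fold change 0.44, adjusted p = 0.112 in edgeR), and to *Cacng4*, an auxiliary subunit of AMPA receptors, at 163 ± 12.5 and 138 ± 14.4 CPM (0.25, adjusted p = 0.168). Of 12 further genes of newly formed oligodendrocytes, 3 were lower and 0 higher, with a median of -0.28. They included *Tns3*, a tensin of differentiating oligodendrocytes (-0.39, adjusted p = 0.166 in edgeR), and *Sirt2*, a deacetylase of the myelin sheath (-0.59, adjusted p = 0.204). Of 23 other regulators of the lineage 1 was lower, *Nkx6-2*, a homeobox factor of myelinating cells (-1.01, adjusted p = 0.249 in edgeR). *Myrf*, the factor that switches on myelin genes, followed at -0.39 (adjusted p = 0.406).

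All 15 mature myelin genes tested were lower in IUO than in PNO at an unadjusted 0.05, against 9.14% of all genes. Their median was -1.42, and 0 passed an adjusted 0.05, against 0.0637% of all genes. Against SAL, all 15 were above 0 in PNO (median 0.78, 3 under an unadjusted 0.05) and all 15 were below 0 in IUO (median -0.61, 4 under an unadjusted 0.05). The shares of all genes under an unadjusted 0.05, in either direction, were 4.5% in PNO and 6.88% in IUO. *Mal*, a myelin proteolipid, was at 119 ± 76.9 CPM (SD, n = 6) in PNO and 24.8 ± 11.5 in IUO (-2.27, adjusted p = 0.0725 in edgeR) and *Ermn*, a cytoskeletal protein of the myelin sheath, was at 15.8 ± 10.3 and 4.29 ± 1.63 CPM (-1.89, adjusted p = 0.0777). Set side by side, the medians in IUO against PNO were 0.14 for the further precursor genes, 0.04 for the 23 other regulators, -0.06 for the 2 precursor members, -0.28 for the 12 further newly formed genes, -0.34 for the 4 transcription factors, -0.39 for the 4 newly formed members and -1.42 for mature myelin. Among the 4 newly formed members *Bcas1* and *Enpp6* were near the low end and *Gpr17* (-0.15) and *Itpr2* (-0.13) near 0. Over all genes tested the median was near 0. These lists were chosen with results of these data known, and the order of the medians was not tested.

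A stage difference was computed for each pup as the mean log2 CPM of *Gpr17*, *Enpp6*, *Bcas1* and *Itpr2* minus that of *Pdgfra* and *Cspg4*. Only its change from pup to pup carries meaning, since CPM does not compare genes of different length. It was at -1.50, -1.40 and -1.18 (lowest, median and highest) in SAL, at -1.79, -1.46 and -0.42 in PNO, and at -1.69, -1.48 and -1.35 in IUO. The group means were -1.38 ± 0.13, -1.31 ± 0.49 and -1.49 ± 0.12 (SD, n = 6), and they differed by less than the SD within PNO. PNO held both the lowest pup (replicate 2) and the highest (replicate 1) of all 18. Without replicate 1 the PNO mean was -1.49 ± 0.26 (n = 5). Without *Cspg4* and *Itpr2* the means were -1.483 ± 0.329 in SAL, -1.295 ± 0.461 in PNO and -1.678 ± 0.173 in IUO (n = 6). The 4 newly formed genes did not vary as 1 set. Over the 18 pups *Gpr17* went with *Itpr2* (Pearson's r = 0.85) and *Enpp6* with *Bcas1* (0.75), but *Gpr17* with *Bcas1* gave -0.22. *Gpr17* (0.74) and *Itpr2* (0.81) went with *Pdgfra*, on the other side of the difference.

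**Figure D3:**
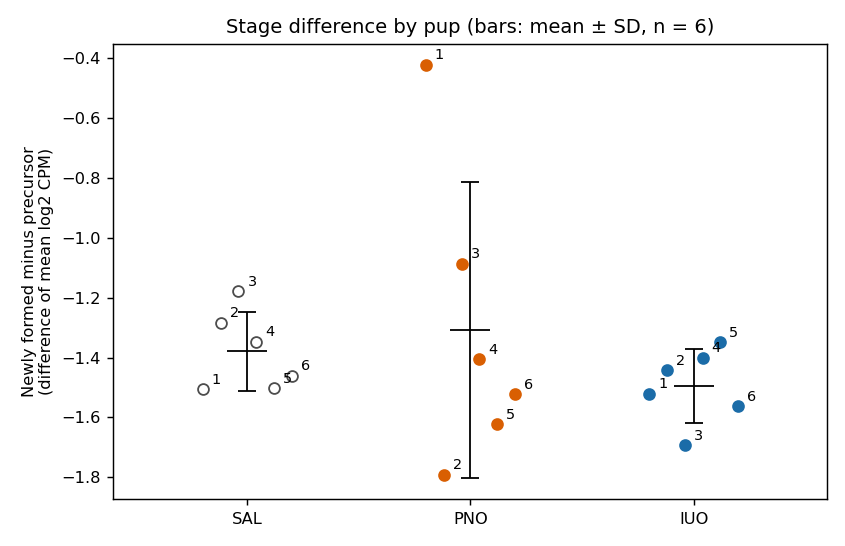
Stage difference of each pup (y axis, difference of mean log2 CPM between the 4 newly formed and the 2 precursor genes) by group, with replicate numbers, the mean and the SD. PNO spans -1.79 to -0.42, while SAL and IUO stay between -1.69 and -1.18.

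The 10 genes did not vary across pups as 1 block. Pairwise correlations of log2 CPM were computed for all 45 pairs over 18 pups, and 23 of them passed an adjusted p-value of 0.05 by permutation over the 45. The 2 outermost pups of a pair were those farthest from the median of its first gene, in the order of the opening list. They could therefore differ from pair to pair. *Olig1*, *Olig2*, *Sox10*, *Enpp6* and *Bcas1* varied together, with Pearson's r between 0.75 and 0.93 in their 10 pairs. The highest was *Olig2* with *Sox10* (r = 0.93, Spearman's rho = 0.93, permutation p = 1e-05 for both, adjusted p = 9e-05 and 0.0001125, r = 0.91 without the 2 outermost pups), and it was 0.94, 0.98 and 0.93 within SAL, PNO and IUO. *Pdgfra*, *Gpr17* and *Itpr2* varied together as well, with r between 0.74 and 0.85. *Gpr17* with *Itpr2* gave r = 0.85 and rho = 0.85 (permutation p = 2e-05 and 4e-05, adjusted p = 0.0001286 and 0.0002), 0.67 without the 2 outermost pups, and 0.74, 0.92 and 0.73 within the groups. Between these 2 sets, which were drawn up after the correlations were seen, r lay between -0.22 and 0.29 in 15 pairs, and between -0.61 and 0.10 without the 2 outermost pups. Thus *Gpr17* and *Bcas1*, both markers of the stage after the precursor, gave r = -0.22 (rho = -0.32, permutation p = 0.383 and 0.204, adjusted p = 0.505 and 0.328), and -0.61 without the 2 outermost pups. Within groups that pair ran from -0.80 in SAL to 0.24 in PNO and -0.28 in IUO. Of the 17 pairs with *Cspg4* or *Nkx2-2*, r lay between 0.26 and 0.68, and 10 passed an adjusted 0.05. The 10 were pairs with *Olig1*, *Olig2*, *Sox10*, *Enpp6* or *Bcas1*, or *Cspg4* with *Nkx2-2*. None of the 6 pairs with *Pdgfra*, *Gpr17* or *Itpr2* passed, and those with *Gpr17* or *Itpr2* turned negative without the 2 outermost pups (-0.06 to -0.19).

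These sets followed different properties of the libraries, in a family of 40 relations of the 10 genes with 4 properties. In these relations the 2 outermost pups were those farthest from the median of the property. *Bcas1* followed the summed level of 15 mature myelin genes (r = 0.92, rho = 0.92, permutation p = 1e-05 for both, adjusted p = 5.714e-05 and 8e-05), and so did *Olig1* (0.88), *Olig2* (0.88), *Sox10* (0.85) and *Enpp6* (0.85). Without the 2 pups outermost in myelin these r lay between 0.810 and 0.895. Within IUO r was 0.54 for *Olig1*, 0.51 for *Olig2* and 0.595 for *Sox10*, against 0.91 to 0.98 within SAL and PNO. For *Bcas1* and *Enpp6* it was 0.82 and 0.95 within IUO. *Pdgfra* (-0.10), *Gpr17* (-0.16) and *Itpr2* (-0.13) had r near 0 over all pups. Within SAL and IUO, *Gpr17* (-0.66 and -0.71) and *Itpr2* (-0.77 and -0.83) went down with the myelin sum, while within PNO both were positive (0.32 and 0.39). Of all genes tested, 15.3% had an r of at least 0.5 with the myelin sum, against 6 of the 10. The summed level of further precursor genes went instead with *Itpr2* (r = 0.87, rho = 0.79, permutation p = 1e-05 and 0.00019, adjusted p = 5.714e-05 and 0.001086), *Pdgfra* (0.85) and *Gpr17* (0.71), 3 of 10 at 0.5 or above, against 22.3% of all genes. With the summed choroid plexus markers, *Sox10* (0.64), *Olig1* (0.57), *Enpp6* (0.57) and *Olig2* (0.56) had an r of at least 0.5, against 4.94% of all genes. For these 4 the adjusted permutation p ran from 0.0139 to 0.0413 for r and from 0.0573 to 0.0633 for rho, and without the 2 outermost pups r was between 0.35 and 0.50. Within SAL and PNO r lay between 0.37 and 0.76. Within IUO it was 0.55 for *Olig2*, 0.41 for *Sox10*, 0.30 for *Olig1* and -0.21 for *Enpp6*.

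The effective length deposited for each gene, a value separate from its full length, was averaged over all genes by TPM. This mean effective length of a library lay between 1420 and 1786 nt. *Gpr17* rose with it (r = 0.77, rho = 0.74, permutation p = 0.00016 and 0.00083, adjusted p = 0.0007111 and 0.00415), r was 0.78 without the 2 outermost pups, and it was 0.88, 0.84 and 0.61 within SAL, PNO and IUO. *Itpr2* (0.76) and *Pdgfra* (0.59) rose with it too, while *Bcas1* (-0.66) and *Olig1* (-0.63) fell. Without the 2 outermost pups r was -0.41 for *Bcas1* and -0.37 for *Olig1*, and within PNO it was -0.14 and -0.35. An r of at least 0.5 in size was common, reached by 5 of the 10 genes and by 48.3% of all genes tested, and the mean length itself went down with the log2 myelin sum (r = -0.58).

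Once group means and mean effective length were removed from every gene, a step added after the correlations were seen, all 45 pairs had a positive r, between 0.42 and 0.94 with a median of 0.72. With only group means removed, 40 of 45 were positive and the median was 0.58. *Gpr17* with *Olig1* went from -0.05 to 0.85, *Gpr17* with *Bcas1* from -0.23 to 0.61 and *Pdgfra* with *Olig2* from 0.17 to 0.64. Within *Pdgfra*, *Gpr17* and *Itpr2* r fell, from 0.85 to 0.63 for *Gpr17* with *Itpr2* and from 0.74 to 0.55 for *Pdgfra* with *Gpr17*, and the median of the 10 pairs from *Olig1* to *Bcas1* was 0.831 before and 0.835 after. After this step each gene had an r of at least 0.5 with 8 or 9 of the 9 others, while between 6.33% and 10.6% of the 15693 genes outside the 10 reached that value with it. Before it, *Gpr17* and *Itpr2* reached it with 2 of 9, where 20.3% and 21.6% of other genes did, *Pdgfra* with 3 of 9 (17.8% of other genes), *Cspg4* with 7 of 9 (4.99%) and the remaining 6 genes with 6 of 9 (3.94% to 15.4%). What the mean length of a library stands for was not tested. With mean length as a covariate in edgeR, *Bcas1* in IUO against PNO was at -0.56 (adjusted p = 0.187), *Olig2* at -0.34, *Olig1* at -0.32 and *Enpp6* at -0.64, and 0 of the 10 passed an adjusted 0.05, against 0.962% of all genes.

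**Figure D4:**
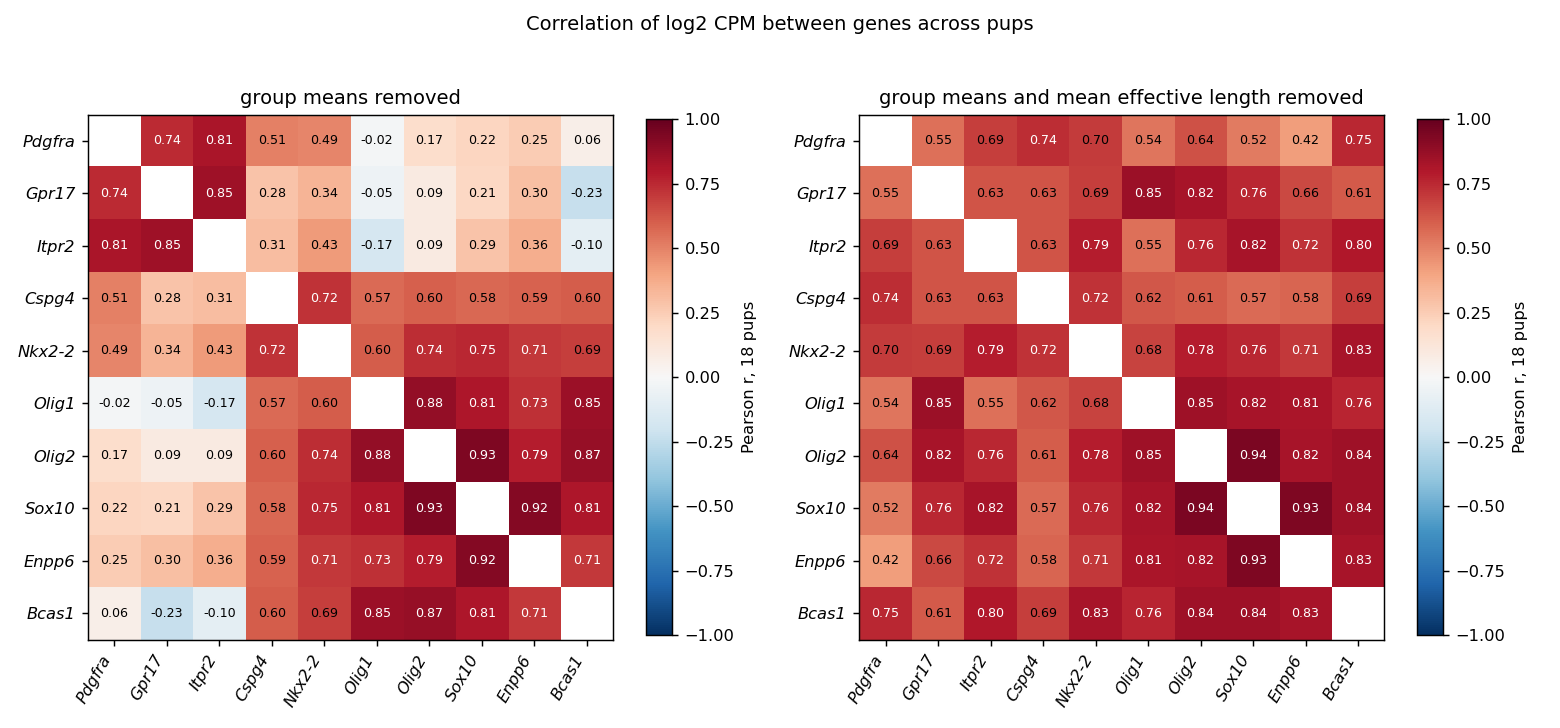
Pearson's r of log2 CPM between the 10 genes over 18 pups, with group means removed (left) and with group means and mean effective length removed (right), on a color scale from -1 to 1. On the left *Pdgfra*, *Gpr17* and *Itpr2* stand apart from *Olig1*, *Olig2*, *Sox10*, *Enpp6* and *Bcas1*, and on the right all 45 values are between 0.42 and 0.94.

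**Figure D5:**
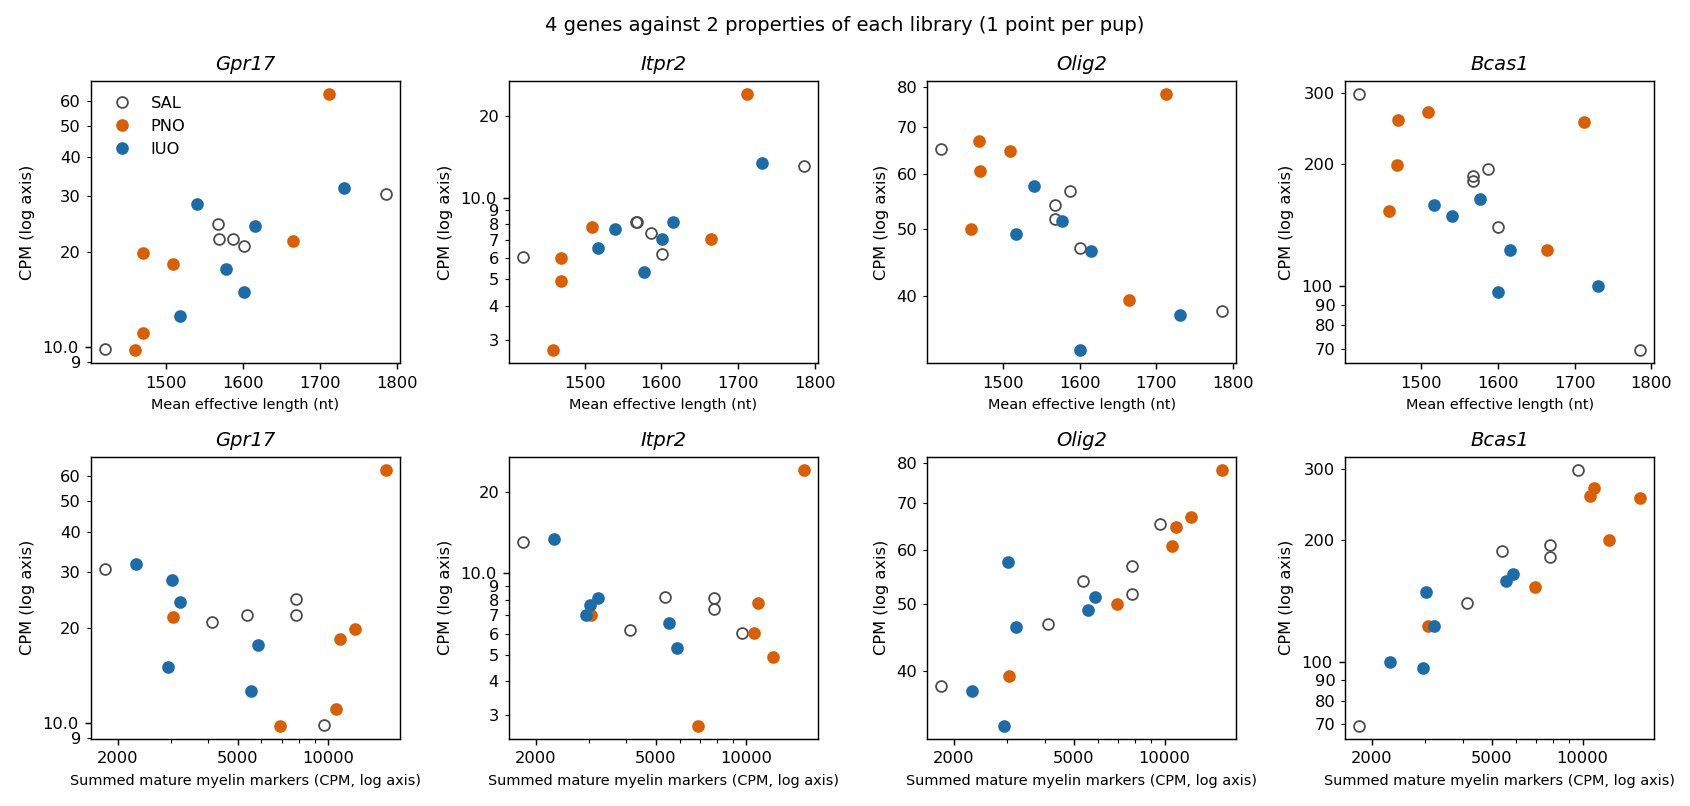
CPM of *Gpr17*, *Itpr2*, *Olig2* and *Bcas1* (y axis, log scale) against the mean effective length of the library in nt (upper row) and the summed CPM of 15 mature myelin genes (lower row, log scale), with 1 point per pup colored by group. *Gpr17* and *Itpr2* rise with length, *Olig2* and *Bcas1* rise with myelin, and PNO replicate 1, at 15549 CPM of myelin genes, is high for all 4.

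Outside the 10, the genes most alike in their variation across the 18 pups, after removal of group means, were *Fam214b* (r = 0.94), *Fam120b* (0.93) and *Ticam2* (0.89) for *Pdgfra*, *Evi2a* (0.92), *Gltp* (0.91) and *Cnp* (0.90) for *Olig2*, and *Chst11* (0.94), *Ppp1r16b* (0.93) and *Tppp* (0.92) for *Gpr17*. *Cnp* encodes a myelin enzyme and is among the 15 mature myelin genes.

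Markers of other cells were read in the same libraries. *Pdgfra* is also expressed by fibroblasts of the brain's membranes and *Cspg4* by mural cells of vessels. Summed fibroblast markers lay between 138 and 484 CPM and mural markers between 109 and 162 CPM, and 0 of these genes were at 0 in every pup. In IUO against PNO, 1 of 6 fibroblast and 0 of 8 mural markers were under an unadjusted 0.05, against 15.3% of all genes. Cortical markers summed to between 1106 and 2621 CPM in every pup while striatal markers ran from 163 to 1909 CPM (medians 307 in SAL, 322 in PNO and 661 in IUO) and choroid plexus markers from 3.03 to 972. Of 8 proliferation genes, 1 was higher and 0 were lower in IUO than in PNO at an unadjusted 0.05, against 6.14% and 9.14% of all genes. In PNO against SAL 0 of the 8 were higher and 1 was lower, against 4.5% of all genes in either direction. Summed astrocyte markers had medians of 2668 CPM in SAL, 2865 in PNO and 2289 in IUO. Of these 8 markers 4 were lower in IUO than in PNO at an unadjusted 0.05, against 9.14% of all genes. The part of these cells in the levels of the 10 genes was not tested beyond the fits that left pups out.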

How the data were processed

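RNA-seq of 18 pups was analysed, with groups and replicate numbers read from the sample titles. For every gene of a pup the authors deposited an expected count, an effective length, and TPM and FPKM values. The expected count divides a read between the genes it matches. The FPKM values that the authors deposited were not used. The deposited TPM values, scaled per length, served to compare genes with each other and to weight the mean effective length of a library. They also served in an alternative form of the stage difference. The aligner, quantifier, annotation and genome build are not given in the sources used here.

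Expected counts were rounded, normalized by TMM and filtered by group (filterByExpr), and 1 quasi-likelihood model over 18 pups was fitted (edgeR 4.0.16, R 4.3.3; two-sided, Benjamini-Hochberg over 15703 genes). Calls required an adjusted p under 0.05. Levels are TMM CPM, and a prior count of 2 entered log2 CPM. Correlations used 100000 permutations, whose smallest possible p is 1e-05 before Benjamini-Hochberg adjustment over 45 pairs or 40 relations.

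The members and all lists were chosen with earlier results of these data known. The genes named beside the 10 are, per list, the 2 with the smallest p in IUO against PNO where none passed an adjusted 0.05, and for *Pdgfra*, *Olig2* and *Gpr17* the 3 genes with the highest group-centred r. Alternatives were other size factors, no composition normalization, DESeq2 (1.42.0), limma-voom with quality weights (limma 3.58.1), other filters, only the 12 pups compared, a replicate block and each pup left out. Mean effective length as a covariate and the exclusion of pups with summed choroid plexus markers above 100 CPM (6 pups) or striatal markers above 1000 CPM (5 pups) were chosen after seeing the data. No pair of pups within a group agreed within sampling noise. The edgeR fit was also run on simulated data with 200 genes changed, and the outcome of that run is not given here. Listed symbols without a match were not analysed here.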

Additional observations from a re-analysis of the deposited data

Results flagged for a closer look

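Among 30 combinations of gene and group, 2 held a pup whose distance to the nearest other pup exceeded the 95% limit of Dixon's test for groups of 6, where chance alone marks about 1 in 20 such groups. *Cspg4* in IUO replicate 6 was at a log2 CPM of 5.51, against 5.29 in the nearest IUO pup. *Gpr17* in SAL replicate 4 was at a log2 CPM of 3.32, against 4.39 in the nearest SAL pup, and that library also had the shortest mean effective length of all, 1420 nt.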

How the results depend on the processing

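The count of 0 of 10 genes past an adjusted 0.05 held in each of the 3 comparisons under every alternative run, except that limma-voom with quality weights called 1 of the 10, *Bcas1*, in IUO against PNO, where it called 12.9% of all genes. The count at an unadjusted 0.05 in IUO against PNO was 4, against 15.3% of all genes. It was 2 without composition normalization (14.4% of all genes) and 0 without the pups high in choroid plexus markers (11.9%). It was 1 without those high in striatal markers (12.6%), and between 0 and 5 with 1 pup left out (11.4% to 21.4%). In PNO against SAL it was between 0 and 1 with 1 pup left out, against 2.52% to 8.99% of all genes. So it was in IUO against SAL, against 5.14% to 8.77%. There limma-voom gave 1 of 10, against 17.3% of all genes. Without the pups high in choroid plexus markers (12 pups kept) the fold changes of *Bcas1* (-0.75), *Olig1* (-0.341) and *Olig2* (-0.337) stayed near those of the whole set while that of *Enpp6* shrank to -0.165, and without those high in striatal markers (13 pups kept) they were -0.856, -0.433, -0.428 and -0.80. The causes of these shifts were not tested. Of the 30 fitted fold changes of the 10 genes, 9 changed sign in limma-voom, 8 with a replicate block, 8 without the pups high in choroid plexus markers and 3 each without composition normalization and without the pups high in striatal markers. In PNO against SAL the log2 fold change of *Itpr2* was -0.268 in limma-voom, -0.238 without the pups high in choroid plexus markers and between -0.519 and 0.294 with 1 pup left out. That of *Gpr17* was -0.391, -0.289 and between -0.421 and 0.313.

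Pups with the same replicate number did not deviate together in every pair. Their correlation over all genes lay between -0.301 and 0.488, and in each comparison at most 2 of 6 pups correlated best with their own number, so the numbers were not taken as pairs. With a replicate block the count at an unadjusted 0.05 in IUO against PNO was 3, against 16.5% of all genes. In that fit 0 of the 10 genes were called, and 6 of all genes were called against 10 without the block. The block gave *Itpr2* -0.115 and *Gpr17* -0.046 in PNO against SAL.

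Over all genes, the count of 10 called in IUO against PNO became 436 in DESeq2, 2028 in limma-voom, 19 without composition normalization, 72 with only the 12 pups compared, 151 with mean length as a covariate and 0 without the pups high in striatal markers, and it ran from 1 to 95 with 1 pup left out. In IUO against SAL the count of 0 became 49 in DESeq2, 43 in limma-voom, 8 with mean length as a covariate and 2 without the pups high in choroid plexus markers. In PNO against SAL the count of 0 became 1 in DESeq2 and 1 without the pups high in choroid plexus markers.

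The mean stage difference on log2(TPM + 1) was 0.472 in SAL, 0.575 in PNO and 0.356 in IUO, since TPM corrects for length, and without *Cspg4* and *Itpr2* it was -1.483 ± 0.329 in SAL, -1.295 ± 0.461 in PNO and -1.678 ± 0.173 in IUO (SD, n = 6). The r of *Gpr17* with *Bcas1* was 0.613 after removal of mean length. The lowest counts in a pup were 71 for *Nkx2-2* and 52 for *Itpr2*.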
